A study of Mus musculus with 12 samples.

Results

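The genes described here are 10 targets of Wnt signalling in pericentral hepatocytes, the liver cells around the central vein: *Glul*, *Axin2*, *Lgr5*, *Rnf43*, *Znrf3*, *Rhbg*, *Slc1a2*, *Nkd1*, *Sp5* and *Lect2*. They were taken by symbol from a table of 25676 genes, and each matched 1 row. All 10 were among the 12278 genes with a mean of at least 0.5 TPM (transcript abundance per length, as a share of the library), the minimum for testing. None of them was listed at 0 in any library.

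Bulk RNA sequencing was done on whole livers of 12 mice, 1 library each, to compare livers without *Yap1* with normal ones. All mice were on a C57BL/6 background and 3 to 4 months old. The knockout mice (KO) are labelled Foxa3-Cre YAP1 KO and comprised 3 males and 3 females. The wild-type mice (WT), also 3 males and 3 females, are labelled WT, and their alleles at *Yap1* and the Cre transgene are not given in the labels. No treatment is named for any group. As background, *Foxa3* is switched on in the embryonic endoderm that forms the liver epithelium, so a Cre it drives is expected in bile duct cells as well as in hepatocytes.

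As background, endothelial cells of the central vein secrete Wnt ligands and R-spondin 3, and hepatocytes next to the vein respond through beta-catenin and TCF factors. The response sets up the pericentral zone, where ammonia that escaped the urea cycle is bound into glutamine. Several targets also act back on the pathway: some are inhibitors that limit it, and *Lgr5* encodes a receptor that strengthens it. YAP1 is a co-activator of TEAD transcription factors and is held in check by the Hippo kinases.

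Promoter sequences are shown for 4 of the genes to show the TCF/LEF motif where it was found, in *Sp5*, *Lect2* and *Slc1a2*, and a promoter without it, that of *Axin2*. They were chosen after the values were seen. RefSeq promoter entries (GRCm38.p6) were matched for 7 of the 10 genes, with 8 promoters in all. Entries for *Lgr5*, *Znrf3* and *Rhbg* were not used here. The 250 bases before each start were searched on both strands for a core TCF/LEF motif of 7 bases, CTTTG followed by A or T and then again by A or T. A match was found in 3 of the 8 promoters of these genes and in 14.8% of all 32851 promoters. The windows of *Glul* and *Nkd1* and both windows of *Rnf43* had no match, so genes with lower levels in KO were found with and without one. The *Nkd1* and *Rnf43* windows lie inside the annotated genes, and the more upstream *Rnf43* window lies wholly in an exon. Bases before the annotated starts of *Nkd1* and *Rnf43* were not searched. All 250 bases of the *Glul* window lie in an exon of *Teddm2*. Below, 5′ to 3′ on the gene's strand, capitals mark the matches.
Sp5, chr2:70474673-70474922, plus strand: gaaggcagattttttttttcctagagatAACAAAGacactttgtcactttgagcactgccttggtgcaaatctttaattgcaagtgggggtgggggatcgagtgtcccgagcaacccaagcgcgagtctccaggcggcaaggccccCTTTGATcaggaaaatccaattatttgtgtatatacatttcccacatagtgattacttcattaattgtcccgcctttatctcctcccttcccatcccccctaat
Lect2, chr13:56548539-56548788, minus strand: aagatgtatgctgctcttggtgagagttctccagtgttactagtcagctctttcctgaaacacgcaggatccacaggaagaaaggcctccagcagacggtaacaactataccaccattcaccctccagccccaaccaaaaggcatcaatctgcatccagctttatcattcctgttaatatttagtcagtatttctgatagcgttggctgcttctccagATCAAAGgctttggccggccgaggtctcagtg
Slc1a2, chr2:102706188-102706355, plus strand: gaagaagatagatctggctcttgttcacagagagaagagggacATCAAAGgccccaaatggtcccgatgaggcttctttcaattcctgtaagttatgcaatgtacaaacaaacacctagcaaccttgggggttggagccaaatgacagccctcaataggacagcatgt
Axin2, chr11:108920099-108920348, plus strand: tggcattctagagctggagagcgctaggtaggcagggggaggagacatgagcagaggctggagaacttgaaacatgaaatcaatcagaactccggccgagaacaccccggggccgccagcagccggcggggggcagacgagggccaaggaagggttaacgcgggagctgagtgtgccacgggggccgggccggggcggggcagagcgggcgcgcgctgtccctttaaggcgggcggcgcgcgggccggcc
The matches lie 222 and 104 bases before the start in *Sp5*, 32 before it in *Lect2* and 207 before it in *Slc1a2*. The *Slc1a2* start used by RefSeq lies inside the gene, and an annotated exon covers 29 bases of the searched window, which ends at 102706437. The stretch shown ends at 102706355 and so leaves out this exon and the bases between it and the start. Bases G and C made up 69.2% of the *Axin2* window, 46.0% of that of *Sp5*, 48.0% of that of *Lect2* and 44.8% of that of *Slc1a2*, against a median of 52.4% over all promoters. A match is a description of these letters only, and binding was not measured.

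*Yap1* itself, the targeted gene, ranged from 23.0 to 34.9 TPM in WT and from 0.994 to 3.11 TPM in KO. Hepatocyte transcripts were abundant in every liver: 8 hepatocyte markers summed to between 80792 and 107108 TPM in WT and between 60940 and 86271 TPM in KO. Each library had between 14321 and 15482 genes above 0 TPM. Most genes stood higher in KO on the deposited TPM scale, with a median log2 fold change of 0.35 over all tested genes (0.31 with the 20 most abundant genes left out). Values were also rescaled by the median of ratios, which brings that median to -0.03, and log2 fold changes over both sexes are given on both scales. In bulk liver, fewer pericentral cells and less RNA per cell cannot be told apart.

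Over both sexes, 5 of the 10 genes fell in KO on the deposited scale (*Slc1a2*, *Glul*, *Sp5*, *Lect2* and *Nkd1*) and 2 rose (*Rhbg* and *Axin2*), by limma with a Benjamini-Hochberg adjusted p under 0.05 over all tested genes. Of all tested genes, 4.82% were lower and 50.1% were higher by the same rule. After rescaling, 7 of the 10 were lower, with *Lgr5* and *Rnf43* added, and 0 were higher, against 18.0% lower and 21.3% higher over all tested genes (8 of the 10 had an unadjusted p under 0.05). *Rhbg* and *Axin2* kept a positive fold change after rescaling without passing the threshold. The median log2 fold change of the 10 genes was -0.33 as deposited and -0.67 after rescaling. The 6 KO values lay wholly apart from the 6 WT values in 1 of the 10 genes as deposited and in 5 after rescaling, each time lower. Of all tested genes, 30.6% lay apart in either direction as deposited and 1.88% lay apart and lower, and after rescaling these shares were 18.9% and 7.96%.

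**Figure D1:**
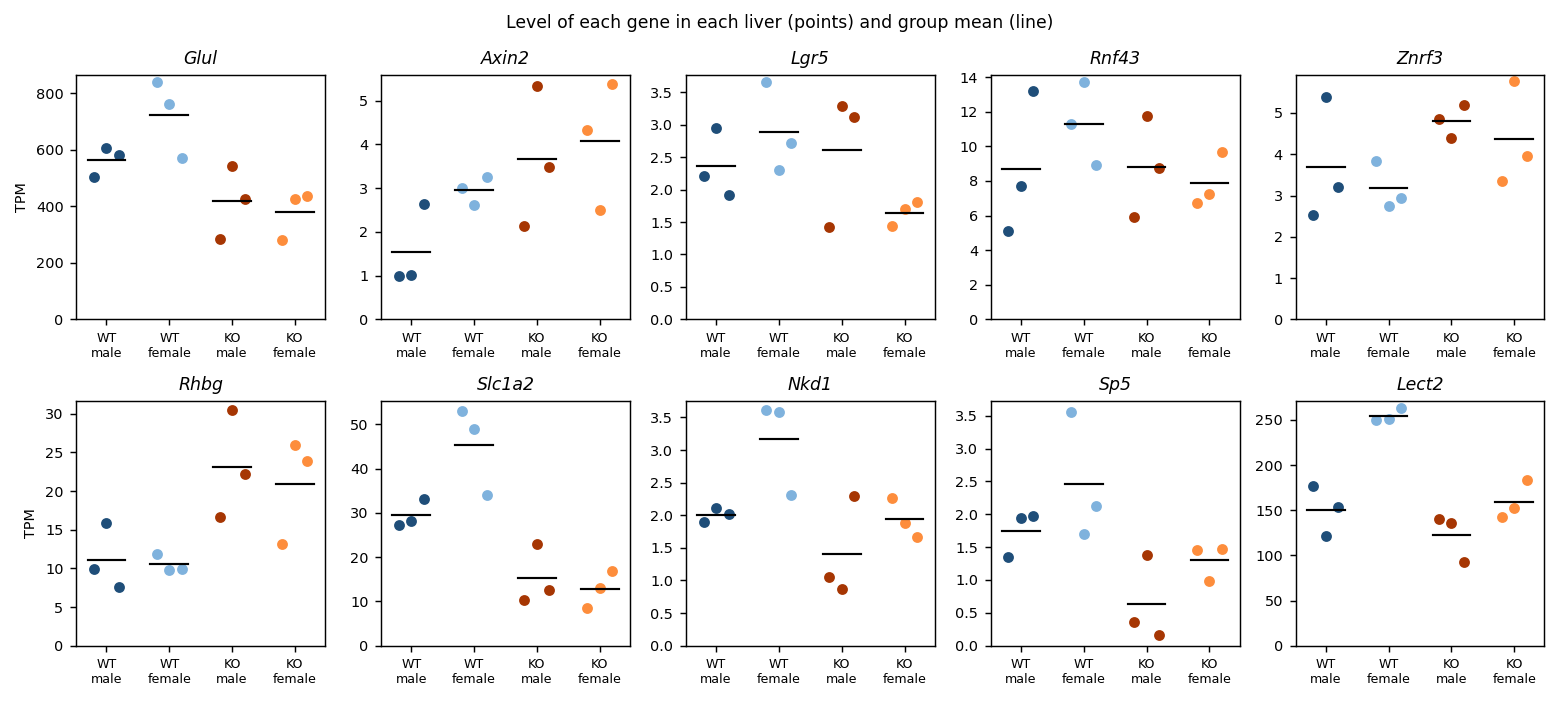
TPM as deposited in each liver (points, vertical axis from 0, a separate scale in each panel) for the 10 genes in the 4 groups of 3 mice, with a line at the group mean. Only in *Slc1a2* do all KO points lie below all WT points, and *Rhbg*, *Axin2* and *Znrf3* have higher means in KO.

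*Glul* encodes glutamine synthetase, which joins ammonia to glutamate and is the classical marker of the hepatocytes bordering the central vein (ENSMUSG00000026473, chromosome 1, 153899944 to 153909723, plus strand, GRCm38). It was at 503, 606 and 581 TPM in WT males and at 839, 761 and 569.6 TPM in WT females. It was at 284, 544 and 425 TPM in KO males and at 282, 425 and 437 TPM in KO females. The genotypes met only at their edges, because KO male 2 at 544 TPM stood above WT male 1 at 503 TPM. The mean was 643 ± 128 TPM in WT and 399.7 ± 101 TPM in KO (SD, n = 6 each), so KO livers held 62.1% of the WT level. The log2 fold change was -0.70 (SE 0.179, limma adjusted p = 0.00478), and -1.16 after rescaling (limma adjusted p = 0.000255), when WT lay between 609 and 907 and KO between 223 and 472 on the rescaled TPM scale. *Glul* shares 116 exon bases with *Teddm2* on the opposite strand, whose mean was 0.0431 TPM.

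*Slc1a2*, a sodium-coupled glutamate transporter that brings in the substrate of glutamine synthetase, had the largest fall of the 10 (ENSMUSG00000005089, chromosome 2, 102658659 to 102790784, plus strand). WT males were at 27.3, 28.2 and 33.1 TPM and WT females at 53.1, 49.0 and 34.1 TPM. KO males were at 10.3, 23.1 and 12.5 TPM and KO females at 8.55, 13.0 and 16.9 TPM. Every KO liver was below every WT liver, with the WT females 1 and 2 the highest. The mean went from 37.5 ± 10.9 to 14.1 ± 5.24 TPM (SD, n = 6 each), which is 37.5% of WT. This was a log2 difference between KO and WT of -1.37 (SE 0.225, limma adjusted p = 0.000205) as deposited and -1.80 (limma adjusted p = 3.2e-05) after rescaling.

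*Rhbg*, the third gene of this metabolic group, encodes an ammonium transporter of the Rhesus family on the basolateral side of pericentral hepatocytes, and it went the other way (ENSMUSG00000104445, chromosome 3, 88242874 to 88254709, minus strand). WT males were at 9.93, 15.8 and 7.55 TPM and WT females at 11.9, 9.79 and 9.94 TPM. KO males were at 16.7, 30.5 and 22.2 TPM and KO females at 13.1, 26.0 and 23.8 TPM. All KO livers but KO female 1 exceeded the highest WT liver, WT male 2. The mean was 10.8 ± 2.81 TPM in WT and 22.0 ± 6.31 TPM in KO (SD, n = 6 each), so KO stood at 204% of WT. *Rhbg* had a log2 difference between KO and WT of 0.95 (SE 0.203, limma adjusted p = 0.00154), but 0.52 after rescaling, which did not pass (limma adjusted p = 0.0881). *Rhbg* shares 1190 exon bases on the same strand with *Gm38392*, so the split of reads between them is uncertain. *Gm38392* ranged from 1.18 to 4.25 TPM in WT and from 0 to 6.02 TPM in KO, and the sum of both genes ranged from 10.96 to 17.2 TPM in WT and from 15.7 to 31.5 TPM in KO.

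The ratios of these genes within a library do not depend on the scaling and were looked at after the values were seen, so they are given without a test. The TPM of *Rhbg* divided by that of *Glul* was 0.0129 to 0.0261 in WT (median 0.0158) and 0.0465 to 0.0611 in KO (median 0.0553). The TPM of *Slc1a2* divided by that of *Glul* was 0.0465 to 0.0644 in WT (median 0.0584) and 0.0294 to 0.0424 in KO (median 0.0334). In neither ratio did the 6 KO livers overlap the 6 WT livers, which restates the unequal fold changes above, and the first carries the uncertain split of *Rhbg* reads.

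**Figure D2:**
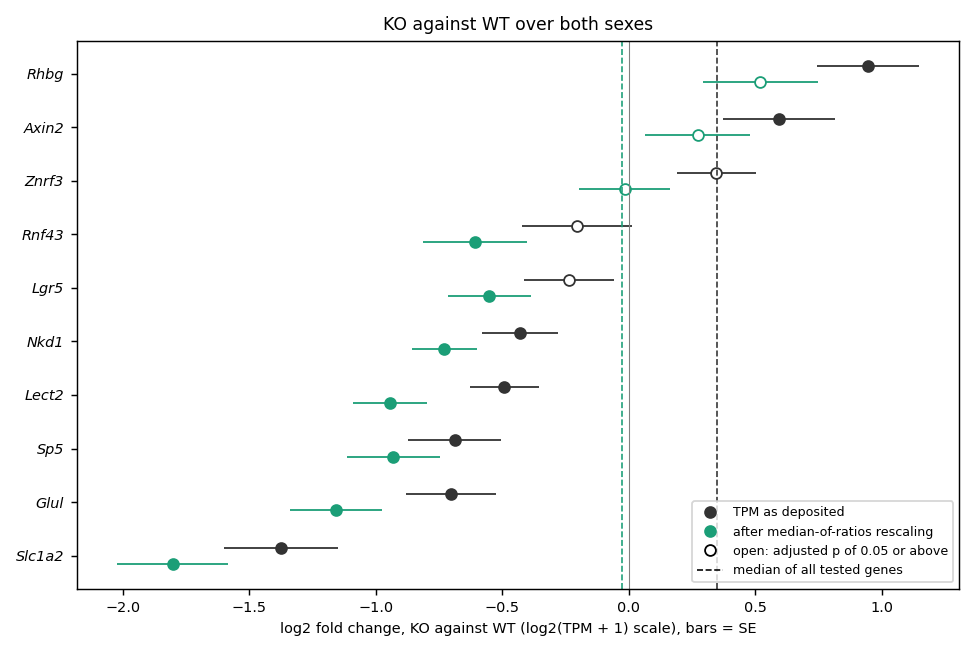
Log2 fold change of KO against WT over both sexes for each gene (points, horizontal axis on the log2(TPM + 1) scale, bars of 1 SE), as deposited in dark and after rescaling in green, filled where the limma adjusted p was under 0.05. Dashed lines mark the median of all tested genes at 0.35 and -0.03, and rescaling moves every gene to the left, with *Rhbg* and *Axin2* filled only as deposited and *Lgr5* and *Rnf43* only after rescaling.

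As deposited, the calls among the feedback inhibitors *Axin2*, *Nkd1*, *Rnf43* and *Znrf3* did not share a direction, with *Axin2* higher and *Nkd1* lower in KO. After rescaling, *Nkd1* (-0.73) and *Rnf43* (-0.61) passed, both as lower, and *Axin2* and *Znrf3* did not pass. Whether the fold changes of these genes differ from each other was not tested. *Axin2*, a scaffold of the complex that degrades beta-catenin and a widely used readout of Wnt activity, was at 0.996, 1.02 and 2.63 TPM in WT males and at 3.01, 2.60 and 3.26 TPM in WT females (ENSMUSG00000000142, chromosome 11, 108920349 to 108950783, plus strand). It was at 2.13, 5.34 and 3.49 TPM in KO males and at 4.34, 2.49 and 5.38 TPM in KO females. The genotypes overlapped, and WT males 1 and 2 were the lowest of all 12 livers. The mean was 2.25 ± 0.995 TPM in WT and 3.86 ± 1.39 TPM in KO (SD, n = 6 each). The log2 fold change was 0.59 (SE 0.221, limma adjusted p = 0.0356) and 0.27 after rescaling (limma adjusted p = 0.319). The call on the deposited scale was also lost when any 1 of 7 libraries was left out (KO females 1 and 3, KO males 2 and 3, WT female 2, WT males 1 and 2), with limma adjusted p between 0.0553 and 0.0835. It was lost as well without the sex covariate (limma adjusted p = 0.0551), with the 20 most abundant genes left out (0.0504) and with no filter on low values (0.0612).

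*Nkd1*, which binds Dishevelled and dampens the signal, was lower in KO (ENSMUSG00000031661, chromosome 8, 88521354 to 88594884, plus strand). WT males were at 1.90, 2.11 and 2.02 TPM and WT females at 3.62, 3.58 and 2.31 TPM. KO males were at 1.05, 0.869 and 2.29 TPM and KO females at 2.27, 1.89 and 1.66 TPM. KO male 3 and KO female 1 lay within the WT range and the other 4 KO livers below it. *Nkd1* had a log2 difference between KO and WT of -0.43 (SE 0.149, limma adjusted p = 0.0257) and -0.73 after rescaling (limma adjusted p = 0.000598), when WT at 2.30 to 3.91 and KO at 0.755 to 1.79 rescaled TPM no longer overlapped. On the deposited scale the call was lost without KO female 3, KO male 1, KO male 2, WT female 1 or WT female 2 (limma adjusted p between 0.0552 and 0.0614), and without the sex covariate (0.0594). The ratio of *Axin2* to *Nkd1*, also looked at after the values were seen, was 0.484 to 1.41 in WT and 1.32 to 6.14 in KO.

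*Rnf43* and *Znrf3* encode related membrane ubiquitin ligases that remove Frizzled receptors from the cell surface, and *Lgr5* encodes the R-spondin receptor that holds such ligases back. *Rnf43* (ENSMUSG00000034177, chromosome 11, 87662722 to 87735539, plus strand) ranged from 5.12 to 13.7 TPM in WT, with a median of 10.1, and from 5.91 to 11.7 TPM in KO, with a median of 7.997. Its log2 fold change was -0.20 (limma adjusted p = 0.445) as deposited and -0.61 (limma adjusted p = 0.032) after rescaling. *Lgr5* (ENSMUSG00000020140, chromosome 10, 115450311 to 115587780, minus strand) ranged from 1.92 to 3.66 TPM in WT, median 2.51, and from 1.42 to 3.29 TPM in KO, median 1.75. The 3 KO females at 1.44, 1.69 and 1.81 TPM lay below every WT liver, while KO males 2 and 3 at 3.29 and 3.12 TPM lay inside the WT range. Over both sexes *Lgr5* had a log2 fold change of -0.24 (limma adjusted p = 0.272) as deposited and -0.55 (limma adjusted p = 0.0176) after rescaling.

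*Znrf3* (ENSMUSG00000041961, chromosome 11, 5276324 to 5444847, minus strand) showed no change past the threshold on either scale. It ranged from 2.52 to 5.38 TPM in WT, median 3.08, and from 3.35 to 5.77 TPM in KO, median 4.62. The log2 fold change was 0.35 (limma adjusted p = 0.0759), equal to the median of all tested genes, and -0.02 after rescaling (limma adjusted p = 0.955). WT male 2, the highest WT liver at 5.38 TPM, carries a library number outside the run of the others in the labels, and without it *Znrf3* passed as higher (0.45, limma adjusted p = 0.0165).

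*Sp5*, a zinc-finger transcription factor induced directly by beta-catenin and TCF in many tissues, was among the scarcest of the 10 (ENSMUSG00000075304, chromosome 2, 70474923 to 70477729, plus strand). WT males were at 1.35, 1.94 and 1.97 TPM and WT females at 3.56, 1.71 and 2.13 TPM. KO males were at 0.355, 1.38 and 0.164 TPM and KO females at 1.45, 0.988 and 1.47 TPM. KO males 1 and 3 were far below the rest, and KO male 2 and KO females 1 and 3 reached the lowest WT value. The mean was 2.11 ± 0.760 TPM in WT and 0.968 ± 0.579 TPM in KO (SD, n = 6 each), or 45.9% of WT. *Sp5* had a log2 difference between KO and WT of -0.69 (SE 0.185, limma adjusted p = 0.00672) and -0.93 after rescaling (limma adjusted p = 0.00139), and the log2(TPM + 1) scale understates changes at such low levels.

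*Lect2* encodes a protein that hepatocytes secrete into the blood and was the second most abundant of the 10 (ENSMUSG00000021539, chromosome 13, 56542464 to 56548502, minus strand). WT males were at 177, 121 and 154 TPM and WT females at 249.7, 251 and 263 TPM. KO males were at 139.9, 135 and 93.0 TPM and KO females at 142, 152 and 183 TPM. The WT females stood apart from every other liver, and the KO livers overlapped the WT males. The mean was 203 ± 59.8 TPM in WT and 141 ± 29.1 TPM in KO (SD, n = 6 each). The log2 fold change was -0.49 (SE 0.137, limma adjusted p = 0.00821) and -0.94 after rescaling (limma adjusted p = 0.000244), when all KO livers lay below all WT livers. Without sex as a covariate the call on the deposited scale was lost (limma adjusted p = 0.0594).

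Ordered by mean TPM, *Glul*, *Lect2* and *Slc1a2* led in WT, each with a range apart from the next gene's. *Rhbg* at 10.8 and *Rnf43* at 9.99 TPM followed with overlapping ranges, and *Znrf3*, *Lgr5*, *Nkd1*, *Axin2* and *Sp5*, between 3.44 and 2.11 TPM, each overlapped their neighbour in the order. In KO the order after *Glul* and *Lect2* was *Rhbg* at 22.0, *Slc1a2* at 14.1 and *Rnf43* at 8.34 TPM, whose neighbouring ranges overlapped. *Rnf43* then stood apart from *Znrf3*, and *Axin2*, *Lgr5*, *Nkd1* and *Sp5* followed with overlapping neighbours. *Rhbg* thus ranked above *Slc1a2* by mean in the KO males and the KO females and below it in the WT males and the WT females.

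The highest and lowest liver varied by gene, and these counts have no test. Among WT livers, WT male 1 was the lowest for 7 of the 10 genes and WT female 1 the highest for 5. Among KO livers, KO male 2 was the highest for 5 and the lowest for 1, and KO female 1 was the lowest for 4. WT female 3 and KO female 1 carry animal numbers well below those of the other 10 mice in the labels, which do not say why. In that pair *Glul* was at 569.6 TPM in WT and 282 in KO, *Slc1a2* at 34.1 and 8.55, *Rhbg* at 9.94 and 13.1, and *Axin2* at 3.26 and 4.34, the same directions as over all mice.

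Within males, 2 of the 10 genes fell (*Slc1a2* and *Sp5*) and 2 rose (*Rhbg* and *Axin2*) on the deposited scale, where 2.81% of all tested genes were lower and 43.3% higher. The changes on the log2 scale were -0.98 for *Slc1a2* (limma adjusted p = 0.0151), -0.82 for *Sp5* (limma adjusted p = 0.0244), 1.01 for *Rhbg* (limma adjusted p = 0.0143) and 0.87 for *Axin2* (limma adjusted p = 0.033). Only 2 of the 10 passed when KO male 1, KO male 3 or WT male 3 was left out. *Slc1a2* lost its call in males without KO male 1 or KO male 3 (limma adjusted p 0.0581 to 0.0616), and *Sp5* without either of them, WT male 2 or WT male 3 (0.062 to 0.103). *Rhbg* lost its call in males without KO male 2 or WT male 3 (limma adjusted p 0.0531 to 0.0605), and *Axin2* without KO male 2, KO male 3, WT male 1 or WT male 2 (0.0771 to 0.131). After rescaling, 5 were lower in males and 0 higher, against 9.84% and 14.1% of all tested genes (5 of the 10 had an unadjusted p under 0.05). These 5 were *Slc1a2* (-1.52), *Sp5* (-1.10), *Glul* (-1.04), *Lect2* (-0.86) and *Nkd1* (-0.74).

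Within females, 3 of the 10 fell on the deposited scale, against 4.68% of all tested genes: *Slc1a2* (-1.77, limma adjusted p = 0.0005), *Glul* (-0.93, limma adjusted p = 0.0103) and *Lect2* (-0.68, limma adjusted p = 0.0119). *Rhbg* rose by 0.88 (limma adjusted p = 0.0351), where 29.1% of all tested genes were higher. The *Rhbg* call in females was lost without KO female 2, KO female 3 or any 1 of the 3 WT females (limma adjusted p between 0.0562 and 0.12), and with the 20 most abundant genes left out (limma adjusted p = 0.0556). After rescaling, 6 were lower and 0 higher in females, against 10.6% and 15.4% of all tested genes (7 of the 10 had an unadjusted p under 0.05). These 6 were *Slc1a2* (-2.09), *Glul* (-1.27), *Lect2* (-1.02), *Sp5* (-0.77), *Lgr5* (-0.76) and *Nkd1* (-0.72).

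**Figure D3:**
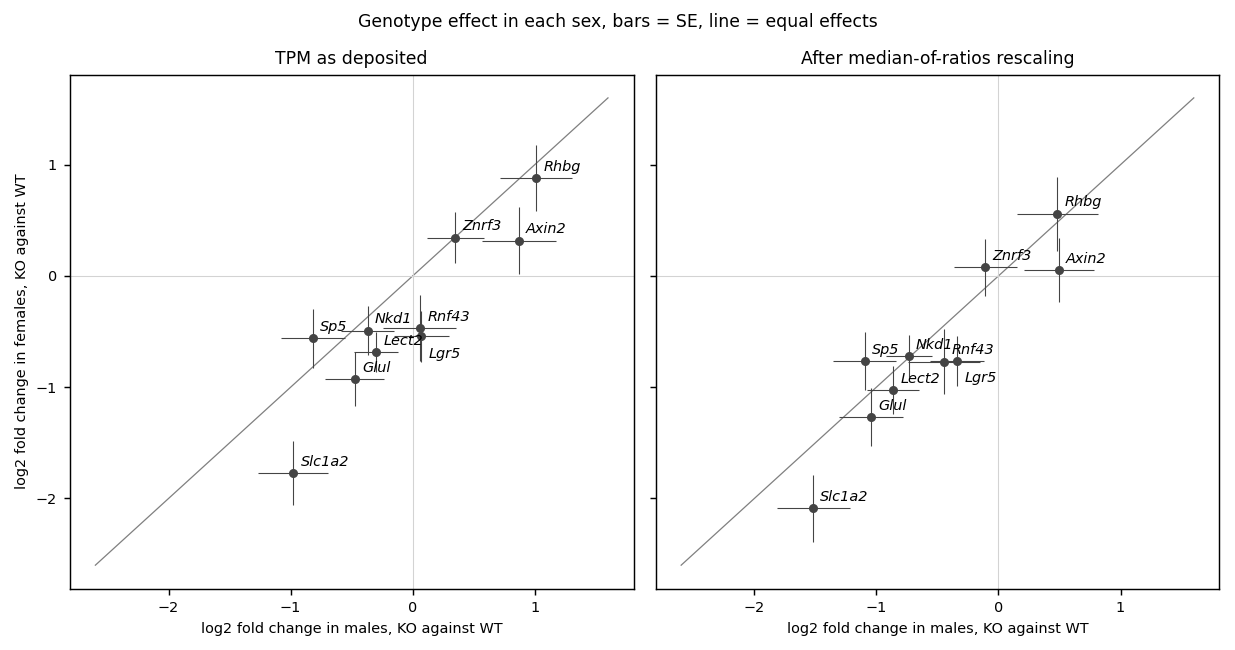
Log2 fold change of KO against WT in males (horizontal axis) and in females (vertical axis) for each gene, with bars of 1 SE and a line of equal effects, as deposited on the left and after rescaling on the right. *Slc1a2* lies furthest below the line as deposited, at -0.98 in males and -1.77 in females, and no gene passed the test of the difference.

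The difference between the male and the female effect was tested directly, and 0 of the 10 genes passed in limma on either scale (0 at an unadjusted p under 0.05), against 0.912% of all tested genes as deposited and 0.831% after rescaling. The differences, male minus female, ran from -0.26 for *Sp5* to 0.79 for *Slc1a2* (SE 0.406, limma adjusted p = 0.607). Genes called in 1 sex only, such as *Axin2* in males, are therefore not shown to differ between the sexes. Among WT livers, *Lect2* alone differed by sex on the deposited scale, lower in males by a log2 difference of -0.77 (SE 0.183, limma adjusted p = 0.0293), where 5.74% of all tested genes differed by sex. After rescaling the difference was -0.55 and did not pass (limma adjusted p = 0.148). The *Lect2* call was also lost without WT female 1, WT female 2, WT female 3 or WT male 2. Among KO livers, 0 of the 10 differed by sex in limma (0 at an unadjusted p under 0.05), where 0.0814% of all tested genes did, and the lowest limma adjusted p was 0.859.

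Other pericentral genes, which depend on Wnt to varying degrees, and periportal genes of the opposite zone were read beside these 10. The counts for these and the following lists stand against 50.1% of all tested genes higher and 4.82% lower as deposited, and 21.3% higher and 18.0% lower after rescaling. Of 12 other pericentral genes, 3 were higher and 3 lower as deposited, and 3 higher and 6 lower after rescaling, with medians of -0.06 and -0.49. *Cyp2e1*, which oxidises ethanol and paracetamol, fell from 6587 ± 1207 to 1438 ± 345 TPM (SD, n = 6 each), a log2 fold change of -2.20 (limma adjusted p = 2.35e-07) and -2.66 after rescaling. *Cyp1a2*, another drug-metabolising cytochrome, fell from 739 ± 85.0 to 269 ± 38.4 TPM, by -1.46 and -1.92 on the respective scales. In the other direction, *Slc13a3*, a dicarboxylate transporter, rose by 1.41 and 0.98, and *Ahr*, the dioxin receptor, by 0.99 and 0.56, past the threshold on both scales.

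Of 10 periportal genes, 2 were higher and 2 lower as deposited, and 2 higher and 4 lower after rescaling, with medians of 0.10 and -0.35. *Cyp2f2*, a cytochrome of the periportal zone, fell from 1191 ± 341 to 109.9 ± 33.2 TPM (SD, n = 6 each), with log2 fold changes of -3.43 and -3.89. *Hal*, which begins histidine breakdown, fell by 0.65 as deposited and by 1.10 after rescaling. *Cdh1*, encoding E-cadherin, rose by 1.85 and 1.41. Lower levels were thus found among the genes of both zones.

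**Figure D4:**
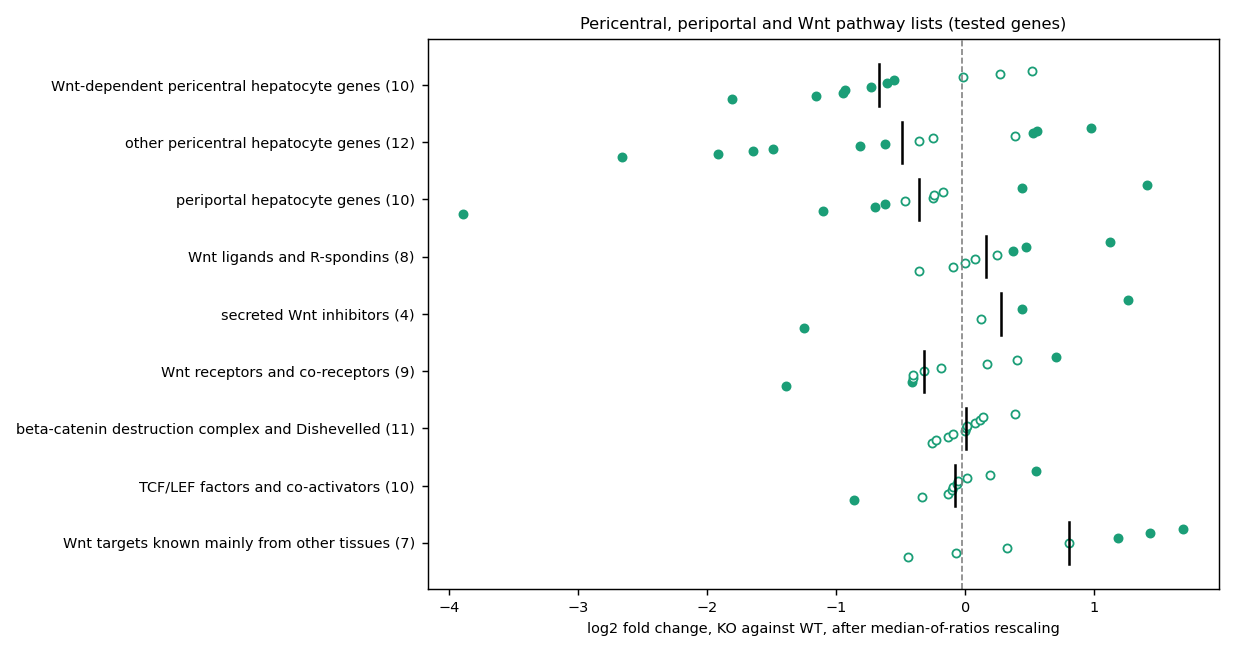
Log2 fold change of KO against WT over both sexes after rescaling (horizontal axis) for the tested genes of each list, filled where the limma adjusted p was under 0.05, with a bar at the list's median and a dashed line at the median of all tested genes. The 10 Wnt-dependent genes have a median of -0.67, the other pericentral genes -0.49 and the periportal genes -0.35.

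Upstream in the pathway, 8 of 14 Wnt ligand, R-spondin and secretion genes were tested, of which 3 were higher and 0 lower on both scales (limma, with 4 at an unadjusted p under 0.05 after rescaling). As deposited that is a smaller share than over all tested genes. *Wnt4* rose from 1.19 ± 0.579 to 4.80 ± 1.00 TPM (SD, n = 6 each), a log2 fold change of 1.42 (limma adjusted p = 8.95e-07) and 1.12 after rescaling. *Wls*, which carries Wnt proteins to the cell surface, rose by 0.79 and 0.47. The ligands known from the central vein did not pass the threshold on either scale. As deposited, *Rspo3* had a log2 fold change of 0.22 (limma adjusted p = 0.275), *Wnt2* 0.27 (limma adjusted p = 0.274) and *Wnt9b* 0.46 (limma adjusted p = 0.111). After rescaling the signs of *Rspo3* (-0.094, limma adjusted p = 0.653) and *Wnt2* (-0.0025, limma adjusted p = 0.994) turned, and *Wnt9b* had 0.25 (limma adjusted p = 0.412).

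Of 12 secreted inhibitors 4 were tested, with 3 higher and 1 lower as deposited and 2 higher and 1 lower after rescaling. *Dkk3*, a Dickkopf family member, rose by 1.59 and 1.26. *Notum*, an enzyme that strips Wnt proteins of their lipid and is itself a target of the pathway in the pericentral zone, fell from 38.1 to 19.99 TPM, on the log2 scale by 0.82 (limma adjusted p = 0.00216) and by 1.25 after rescaling. Of 13 receptor genes 9 were tested, with 3 higher and 1 lower as deposited and 1 higher and 2 lower after rescaling. *Lrp5*, a Wnt co-receptor, rose by 1.14 and 0.71, and *Fzd8*, a Frizzled receptor, fell by 1.03 and 1.39.

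Inside the cell, 6 of 11 genes of the destruction complex and Dishevelled were higher as deposited, near the 50.1% of all tested genes, and 0 were called after rescaling in limma (2 at an unadjusted p under 0.05). *Ctnnb1*, encoding beta-catenin, went from 80.0 ± 4.14 to 112 ± 16.6 TPM (SD, n = 6 each), a log2 fold change of 0.46 (limma adjusted p = 0.00221) that was 0.01 after rescaling. Of 12 TCF/LEF factors and co-activators 10 were tested, with 5 higher, again near that share, and 1 lower as deposited and 1 each after rescaling. *Bcl9*, a beta-catenin co-activator, rose by 0.87 and 0.55, and *Tle1*, a co-repressor, fell by 0.44 and 0.86. Of 10 Wnt targets known mainly from other tissues 7 were tested, with 5 higher and 0 lower as deposited and 3 higher and 0 lower after rescaling (5 at an unadjusted p under 0.05 on both scales). The growth regulator *Myc* rose by 2.10 and 1.69 and the hyaluronan receptor *Cd44* by 1.78 and 1.43, in contrast in sign to *Glul* and *Slc1a2*.

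Markers of other liver cell types were read in the same way. The sum of 7 biliary markers was 37.5 to 67.9 TPM in WT and 264 to 729 TPM in KO, and 3 of the 5 tested were higher and 1 lower (2 and 1 after rescaling). Most of that sum was *Spp1*, encoding the secreted protein osteopontin, at 21.9 to 52.5 TPM in WT and 232 to 702 TPM in KO (log2 fold changes 3.76 and 3.32). *Sox9*, a transcription factor of the biliary lineage, rose by 1.57 on the log2 scale (limma adjusted p = 0.000158) and by 1.18 after rescaling (limma adjusted p = 0.00396). *Epcam*, an epithelial adhesion protein of bile duct cells, was at 0.940 ± 0.341 TPM in WT and 0.515 ± 0.169 TPM in KO (SD, n = 6 each; log2 fold change -0.35, limma adjusted p = 0.0312, a call lost in 8 of the 12 fits with 1 library left out), and its log2 fold change after rescaling was -0.52 (limma adjusted p = 0.00562). The biliary keratin *Krt19* had a log2 fold change of -0.12 (limma adjusted p = 0.707) and -0.35 after rescaling (limma adjusted p = 0.278). The sum of 6 macrophage markers was 61.2 to 193.2 TPM in WT and 270.02 to 545 TPM in KO, and 6 of 6 were higher (5 after rescaling). For 7 stellate cell and myofibroblast markers the sums were 56.9 to 156 and 116 to 290.2 TPM, with 4 higher and 0 lower (2 and 1 after rescaling), shares of higher genes near those over all tested genes. The stellate sums overlapped between genotypes, and their members differed in direction. *Col1a1*, a chain of type I collagen, went from 2.90 ± 1.08 to 62.0 ± 17.2 TPM (SD, n = 6 each), a log2 fold change of 4.01 (limma adjusted p = 6.72e-09) and 3.61 after rescaling. *Pdgfrb*, a growth factor receptor of stellate cells, rose by 1.84 and 1.46, and for both genes all KO livers lay above all WT livers on both scales. *Lrat*, an enzyme of retinol storage in stellate cells, had a log2 fold change of -0.54 (limma adjusted p = 0.0671) as deposited and -0.90 (limma adjusted p = 0.0036) after rescaling. The part of these marker lists in the values of *Rhbg*, *Axin2*, *Cd44* and *Myc* was not tested.

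The 8 endothelial markers of the central vein and sinusoids, the source of the pericentral Wnt signal, overlapped between genotypes in their sum, at 40.4 to 65.1 TPM in WT and 30.0 to 109 TPM in KO. Of them 3 were higher and 0 lower as deposited, and 1 higher and 0 lower after rescaling (3 at an unadjusted p under 0.05), on both scales a smaller share higher than over all tested genes. The 8 lymphocyte and neutrophil markers summed to 1.54 to 17.5 TPM in WT, where *Ly6g* was at 0 in all livers, and 9.37 to 43.3 TPM in KO. Of the 5 tested, 2 were higher and 0 lower as deposited, the neutrophil genes *S100a8* and *S100a9*, and 0 were called after rescaling in limma (1 at an unadjusted p under 0.05). The *S100a9* call was also lost in 7 of the 12 fits with 1 library left out (limma adjusted p 0.0515 to 0.0866). Other settings that lost it were a pseudocount of 0.1 (limma adjusted p = 0.0765), no filter (0.0693) and the 20 most abundant genes left out (0.0582). Of the 8 hepatocyte markers, 1 was higher and 3 lower as deposited and 4 were lower after rescaling, the same direction as *Glul* and *Slc1a2*, and their part in those results was not tested.

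Among the genes whose profile over the 12 livers lay nearest to that of *Glul*, by root mean square distance between centred log2(TPM + 1) values, were *Mtss1* (distance 0.17) and *Pank1* (0.22). Among the 10 genes, *Lgr5* ranked nearest to *Glul* at rank 77 of the tested genes, followed by *Rnf43* at 161, *Slc1a2* at 224 and *Sp5* at 247. Nearest to *Axin2* were *Odf2* (0.19), *Zdhhc24* (0.20) and *Fibp* (0.20), and the nearest of the 10 genes was *Rnf43* at rank 5752. Distances were taken on the deposited scale only, where most genes stood higher in KO. The log2 fold changes of *Odf2*, *Zdhhc24* and *Fibp* over both sexes were 0.51, 0.47 and 0.60 on that scale. After rescaling they were 0.15, 0.16 and 0.16, and none passed the threshold (limma adjusted p 0.371 to 0.472). These distances describe 12 livers that share genotype and sex groups, and they carry no test.

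In the authors' deposited table, which gives its own comparison of KO with WT, 6 of the 10 genes have an FDR below 0.05 and are lower, 1 is higher and 3 are not called. The lower genes in the authors' deposited table are *Slc1a2* (log2 fold change -1.88), *Sp5* (-1.36), *Glul* (-1.24), *Lgr5* (-0.98), *Nkd1* (-0.90) and *Lect2* (-0.81). *Axin2* is the higher gene in the authors' deposited table, at 0.89 with an FDR of 0.02. The authors' deposited table does not call *Rnf43* (-0.54, FDR 0.08), *Znrf3* (-0.34, FDR 0.28) or *Rhbg* (0.18, FDR 0.63).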

How the data were processed

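Whole-liver RNA from 12 mice was sequenced, and groups were taken from the sample titles. The authors deposited 1 table with TPM per mouse, each column summing to the same total. It also holds the authors' own KO against WT comparison (fold change, its log2 and an FDR), whose deposited columns hold some cells without a value, were read as a score and were only copied. The submitters' processing notes name edgeR and build GRCm38, while aligner and counter are not given in the sources used here. TPM keep no record of read depth, so no interval for counting error is given. Per-sample columns matching no sample numbered 0.

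TPM were taken as log2(TPM + 1), and genes with a mean of at least 0.5 TPM entered a linear model in limma (version 3.58.1, R 4.3.3, eBayes with an intensity trend, two-sided, Benjamini-Hochberg over 12278 genes, threshold 0.05). Genotype was fitted over 12 libraries with sex as covariate. Effects within a sex or genotype and the interaction came from 1 model of 4 group means. The fit was tested on simulated data. Alternatives were median-of-ratios rescaling, leaving out the 20 most abundant genes, a pseudocount of 0.1, no filter, no sex covariate, only the 6 libraries compared, a covariate for the 2 mice with the lowest animal numbers and each library left out. The exact permutation test planned for genes under the filter was not needed.

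The 10 genes, the lists and the tests were chosen with earlier results of these data known. Named by rule were the 10 genes, *Yap1*, up to 2 rises and 2 falls of largest size past the threshold from each list, and the 3 genes nearest to *Glul* and to *Axin2*, of which 1 is not reported here. The rule also selected *Hsd17b13*, *Sfrp1*, *Fzd6*, *Gsk3b*, *Dvl1*, *Tle3*, *Ttr*, *Tdo2*, *Thbd*, *Cdh5*, *Cd68* and *Cd5l*, which are counted in their lists and not described singly. *Rspo3*, *Wnt2*, *Wnt9b*, *Ctnnb1*, *Ly6g*, *Krt19*, *Lrat*, *Teddm2* and *Gm38392* were named outside this rule. Positions are from GENCODE M21 (GRCm38).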

Additional observations from a re-analysis of the deposited data

Results flagged for a closer look

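Among 20 groups of 6 livers (each of the 10 genes in WT and in KO), 1 held a liver far from the others by Dixon's criterion. *Sp5* in WT female 1 was at 3.56 TPM, while the other WT livers were at 1.35 to 2.13 TPM. Chance alone flags about 1 group in 20.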

How the results depend on the processing

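No paired analysis was possible because the labels carry no replicate numbers. Over both sexes, 7 of the 10 genes passed in the main analysis and 5 to 7 with 1 library left out, but 4 without the sex covariate, when *Axin2*, *Nkd1* and *Lect2* lost their calls (limma adjusted p 0.0551, 0.0594 and 0.0594). *Axin2* also lost its call with the 20 most abundant genes left out (limma adjusted p = 0.0504) and with no filter (0.0612). Leaving out 1 library gave 2 to 4 of the 10 in males, 3 to 5 in females and 0 to 2 for sex in WT. The count for sex in WT was 0 after rescaling, 0 with a covariate for the 2 mice with the lowest animal numbers and 0 with only the 6 WT libraries. It was 2 without WT male 3.

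Signs that turned belonged to small values, none of which passed under both settings, and the cause was not tested. Rescaling turned *Znrf3* over both sexes (-0.016), *Lgr5* (-0.34), *Rnf43* (-0.45) and *Znrf3* (-0.11) in males, and the interaction of *Znrf3* (-0.19), *Rhbg* (-0.079) and *Nkd1* (-0.012). It turned *Hnf4a*, a hepatocyte marker, from 0.33 to -0.12, and *Rspo3* and *Wnt2* to -0.094 and -0.0025. Without the 20 most abundant genes *Rnf43* in males was -0.017 and the *Znrf3* interaction -0.0094. With that covariate *Rhbg* for sex in WT was -0.15, and for sex in KO *Glul* was -0.075, *Rnf43* -0.0081, *Rhbg* -0.014 and *Slc1a2* -0.011. With 1 library left out, *Lgr5* in males ran from -0.078 to 0.34 and *Rnf43* in males from -0.23 to 0.38. The interaction ran from -0.18 to 0.25 for *Znrf3*, -0.16 to 0.40 for *Rhbg* and -0.13 to 0.28 for *Nkd1*. Sex in WT ran from -0.11 to 0.32 for *Znrf3* and -0.25 to 0.24 for *Rhbg*. Sex in KO ran from -0.11 to 0.36 for *Glul*, -0.39 to 0.12 for *Axin2*, -0.10 to 0.34 for *Rnf43*, -0.14 to 0.35 for *Rhbg* and -0.12 to 0.43 for *Slc1a2*.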
